A study of Mus musculus with 8 samples.

Results

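The nuclear genes of oxidative phosphorylation were compared between 2 genetically marked sets of sensory neurons from mouse dorsal root ganglia (DRG), which lie beside the spinal cord. Genes were taken by symbol: names that begin with Nduf, Uqcr or Atp5, names that begin with Cox and a digit from 4 to 8, and Sdha, Sdhb, Sdhc, Sdhd, Cyc1 and Cycs, without symbols that carry -ps. Of 43372 symbols in the count table, 94 matched, and 86 of these had at least 10 raw counts in at least 4 libraries. The 86 fall into complex I (44 genes, assembly factors included), complex II (4), complex III (9), cytochrome c (1), complex IV (12) and complex V (16). All 86 also passed the expression filter of the test, so no gene was lost between the naming rule and the comparison. Just inside the minimum were Atp5sl, with at least 10 counts in 5 libraries (all 4 Sst libraries and Trpv1 replicate 4), and Ndufaf6, with 6. Just outside it was Cox7a1, with 1.

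Oxidative phosphorylation takes place in the inner mitochondrial membrane. Complexes I and II pass electrons from NADH and succinate to ubiquinone, complex III passes them on to cytochrome c, and complex IV to oxygen. Complexes I, III and IV pump protons, and complex V, the ATP synthase, uses the proton gradient to make ATP. Most subunits are encoded in the nucleus, while a few core subunits of complexes I, III, IV and V are encoded by mitochondrial DNA. In DRG neurons, ATP is spent above all on ion pumping and on transport along very long axons.

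The Sst libraries came from Sst-IRES-Cre mice (Ssttm2.1(cre)Zjh/J), which make Cre recombinase from the locus of the peptide gene Sst. The Trpv1 libraries came from Trpv1-IRES-Cre mice (Trpv1tm1(cre)Bbm/J), which make it from the locus of the heat and capsaicin channel gene Trpv1. All mice were C57Bl/6 of either sex, and all received AAV9 carrying a Cre-dependent (FLEX) eGFP or tdTomato reporter by intraperitoneal injection at postnatal day 2. At 3 to 5 weeks of age, 150 to 250 fluorescent cells of each mouse were hand-picked, with 4 independent samples of each genotype. A picked cell is one in which Cre acted and the virus arrived, whatever its Sst or Trpv1 level at collection. Each library is the mean of a pool, so fewer cells of a kind and less RNA per cell cannot be told apart.

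Library totals ran from 7419027 to 12153109 counts, and all 9 DRG neuron markers checked were measured in both groups. Several library features were not balanced between the genotypes. Xist, which the inactive X chromosome transcribes, was counted in all 4 Sst libraries and in Trpv1 replicates 3 and 4, and had 0 counts in Trpv1 replicates 1 and 2. The pituitary hormone genes Gh and Prl together stood at 454 CPM in Sst replicate 2 and at 1459 to 1620 CPM in Trpv1 replicates 1, 2 and 3, against at most 0.0991 CPM in the other 4 libraries. CPM are counts scaled by library total and TMM factor. The share of counts in mitochondrially encoded protein genes was 9.04% for Trpv1 replicate 3 and 3.21% to 5.15% elsewhere. Trpv1 replicate 4 is the only Trpv1 library with Xist and without those pituitary counts.

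Transcripts of the module were more abundant in the Sst libraries. Summed over the 86 genes, the level was 5260, 6470, 6506 and 5243 CPM in Sst replicates 1 to 4 and 3721, 3294, 3004 and 4555 CPM in Trpv1 replicates 1 to 4. Every Sst library lay above every Trpv1 library, and Trpv1 replicate 4 came closest to the Sst range. The ratio of the group means was 1.61, and the module took 0.594% ± 0.104 of all counts for Sst and 0.368% ± 0.0939 for Trpv1 (SD, n = 4 each). Without Atp5b and Atp5a1, its most abundant genes, the ratio was 1.49 and the highest Trpv1 library (3177 CPM) stood just under the lowest Sst library (3189 CPM).

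Gene by gene, 7 of the 86 rose and 0 fell in Sst (edgeR quasi-likelihood test with an adjusted p under 0.05 over all 11828 genes tested), which is 8.14% of the module. Across all genes tested, 3.04% were called higher and 3.31% lower, 6.35% in all. Described here are 6 of the 7, namely Ndufa9 and Ndufb9 of complex I, Cox4i1 of complex IV, and Atp5b, Atp5a1 and Atp5g1 of complex V. A further 79 did not pass. At an unadjusted p under 0.05, 23 members were higher and 0 lower, against 10.3% and 10.1% of all genes, and DESeq2 likewise called 0 lower. Fitted log2 fold changes (Sst over Trpv1) were positive for 76 members (88.4%, against 50.4% of all genes), with a median of 0.48 against 0.01 over all genes. In 15 members (17.4%) the 4 Sst values all lay above the 4 Trpv1 values, and in 0 all lay below, while 5.43% and 5.71% of all genes separated in those directions. These genes share libraries, so their counts are a description of 8 samples and not 86 tests.

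The count of called genes moved with the libraries used. With Xist presence as a term in the fit, or within the 6 libraries that hold Xist, 2 of the 86 members were called, Atp5b among them. Calls over all genes fell from 751 to 435 and 305 in these fits. The members' medians were 0.41 and 0.44, against 0.04 and 0.07 over all genes, and 66 and 68 members were positive. The part of sex in the result was not tested further. In the 4 libraries without pituitary counts, Sst replicates 1, 3 and 4 were set against Trpv1 replicate 4 alone. The spread of the Trpv1 group is assumed there to equal that of the Sst libraries. Fold changes were positive for 51 of the 86 members in this fit, against 76 in the main fit. There the members' median was 0.12, below the median of 0.23 over all genes.

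**Figure D1:**
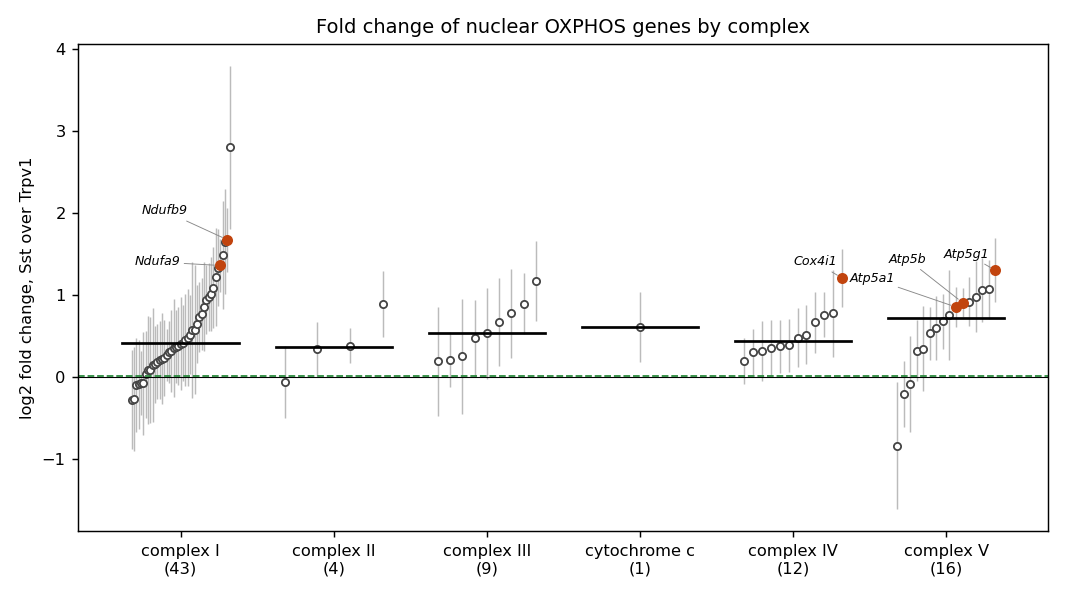
Log2 fold change (Sst over Trpv1, y axis) of 85 of the 86 nuclear oxidative phosphorylation genes, ordered within each complex (x axis, number drawn in brackets). Points are genes with their standard error, filled points passed the test at an adjusted p under 0.05, black bars are the median of each complex over all its genes and the green dashed line is the median of all genes tested (0.01). All 6 filled points lie above 0, and 10 open points lie below it.

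By complex, the median log2 fold change was 0.41 for complex I, 0.36 for complex II, 0.53 for complex III, 0.43 for complex IV and 0.72 for complex V, and the 1 cytochrome c gene stood at 0.61. Summed levels followed the same direction in each. For complex V, the Sst libraries held 2607 to 3228 CPM and the Trpv1 libraries 1133 to 1892 CPM, with no overlap and a ratio of means of 1.80. Complex I had a ratio of 1.56 and complex II of 1.31, both without overlap. In complex II the gap was narrow (lowest Sst library 431.3 CPM, highest Trpv1 library 427.1 CPM), and Sdha made up most of the sum. Complexes III (1.51) and IV (1.40) overlapped, since Trpv1 replicate 4 held 268.8 and 971.4 CPM, above the lowest Sst library of each (222.6 and 843.6 CPM).

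**Figure D2:**
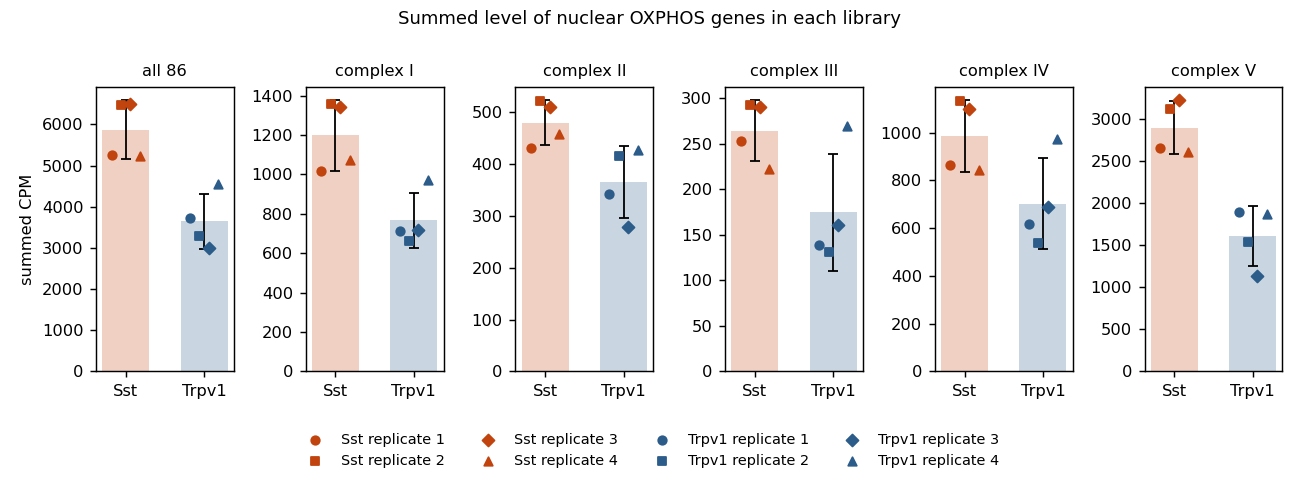
Summed CPM (y axis, from 0) of the whole module and of complexes I to V in each library. Bars are group means, error bars are SD (n = 4) and points are libraries. Complexes I, II and V separate the groups (complex II narrowly), whereas in complexes III and IV Trpv1 replicate 4 lies among the Sst libraries.

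Promoter sequence was available for 73 of the 86 genes in the RefSeq-based table of build GRCm38.p6, which gives 250 bases before and 50 after each start, 79 promoters in all. The promoters of Atp5b, Ndufa9 and Atp5g1, the called genes that the table holds, are shown because their levels differed between the groups. Each is written 5′ to 3′ on the gene's strand, in lower case.
Atp5b (chr10:128083057-128083356, plus strand): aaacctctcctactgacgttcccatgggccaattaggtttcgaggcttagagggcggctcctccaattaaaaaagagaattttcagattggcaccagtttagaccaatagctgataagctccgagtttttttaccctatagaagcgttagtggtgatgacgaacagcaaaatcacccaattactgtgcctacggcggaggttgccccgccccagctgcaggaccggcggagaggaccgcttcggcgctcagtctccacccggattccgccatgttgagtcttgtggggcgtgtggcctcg
Ndufa9 (chr6:126849095-126849394, minus strand): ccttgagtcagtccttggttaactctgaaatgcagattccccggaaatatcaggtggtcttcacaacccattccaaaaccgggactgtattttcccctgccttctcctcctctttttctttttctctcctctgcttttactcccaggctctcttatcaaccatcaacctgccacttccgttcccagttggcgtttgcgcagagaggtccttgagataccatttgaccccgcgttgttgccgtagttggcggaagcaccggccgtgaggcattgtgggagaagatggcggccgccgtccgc
Atp5g1 (chr11:96075582-96075881, minus strand): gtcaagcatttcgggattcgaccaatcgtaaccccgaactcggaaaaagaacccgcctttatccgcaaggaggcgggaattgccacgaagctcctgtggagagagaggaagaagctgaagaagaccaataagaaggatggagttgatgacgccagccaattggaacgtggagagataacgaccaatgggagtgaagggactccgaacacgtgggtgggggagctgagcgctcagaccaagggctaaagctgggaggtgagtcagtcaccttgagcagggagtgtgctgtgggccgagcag

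Median GC content was 59% in the members' promoters and 61.3% in those of tested genes.

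Within complex I, the 7 nuclear core subunits, which form the path of electrons through the complex, had a median log2 fold change of 1.33. Ndufv1, which binds NADH and the flavin, stood at 29.3, 57.9, 57.4 and 33.4 CPM in Sst replicates 1 to 4 and at 17.0, 7.001, 8.84 and 35.7 CPM in Trpv1 replicates 1 to 4. Trpv1 replicate 4 lay inside the Sst range and the gene did not pass (log2 fold change 1.33, SE 0.466, edgeR adjusted p = 0.0929). Without that library it passed (1.99, edgeR adjusted p = 0.0218, range over all alternatives 0.0218 to 0.892). The Trpv1 libraries left in that fit all held pituitary counts. Ndufs7 and Ndufs8, which hold the iron-sulfur clusters nearest to ubiquinone, stood at means of 16.1 and 13.7 CPM in the Sst libraries and 4.91 and 4.76 CPM in Trpv1 replicates 1 to 4. Neither passed (edgeR adjusted p = 0.133 and 0.198). Ndufs1, the largest subunit of the core, gave the smallest difference among the 7, 47.6 ± 11.6 against 39.3 ± 18.7 CPM (SD, n = 4 each, log2 fold change 0.30, SE 0.379).

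The 29 supernumerary subunits surround the core, and many of them are needed for its assembly or stability. Their median log2 fold change was 0.37, with 2 called higher. Ndufb9 (ENSMUSG00000022354.4, GRCm38 chromosome 15, 58933756 to 58939488, plus strand), in the membrane arm, stood at 61.7, 104.3, 97.3 and 55.6 CPM in Sst replicates 1 to 4 and at 24.0, 24.2, 8.34 and 41.8 CPM in Trpv1 replicates 1 to 4. Groups did not overlap, and Trpv1 replicate 3 was the lowest library (log2 fold change 1.67, SE 0.392, edgeR adjusted p = 0.00979). Ndufa9 (ENSMUSG00000000399.10, chromosome 6, 126821721 to 126849136, minus strand), which sits at the junction of the peripheral and membrane arms, stood at 97.0, 119.8, 86.5 and 97.6 CPM against 34.7, 35.3, 23.5 and 61.5 CPM. Again the groups were separate, with Trpv1 replicate 4 the nearest to Sst (log2 fold change 1.36, SE 0.319, edgeR adjusted p = 0.00994). Ndufb9 and Ndufa9 were called in each fit that left out 1 library, and lost their call with the Xist term, in the 6 libraries with Xist and in the 4 without pituitary counts.

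Other supernumerary subunits gave smaller or less certain differences. Ndufa12, Ndufab1 (the mitochondrial acyl carrier protein), Ndufb8 and Ndufb11 also separated the groups, with log2 fold changes of 0.94, 0.98, 1.09 and 1.22, and none passed. Ndufa10 stood at 85.6 ± 34.5 and 70.9 ± 11.5 CPM (SD, n = 4 each, log2 fold change 0.27). Ndufa3, Ndufb2, Ndufb4 and Ndufs4 had fold changes just under 0, from −0.27 to −0.08.

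The 8 assembly factors of complex I had a median log2 fold change of 0.29, and 0 were called. Ndufaf4 had the lowest value in complex I, −0.28 (SE 0.604). It stood at 18.1, 18.3, 24.8 and 8.58 CPM in Sst replicates 1 to 4 and at 9.17, 60.8, 11.9 and 5.71 CPM in Trpv1 replicates 1 to 4. Trpv1 replicate 2 alone made the Trpv1 mean the higher one, and without it the log2 fold change was 1.00. Atp5sl, which carries an ATP synthase name but acts in complex I assembly, had the largest fitted difference of the module, 2.80 (SE 0.990, edgeR adjusted p = 0.0917). Raw counts were 32, 84, 82 and 34 in Sst replicates 1 to 4 and 0, 0, 9 and 19 in Trpv1 replicates 1 to 4, so the size of its difference is poorly known. The Sst libraries alone brought Atp5sl past the count minimum. Its place among the positive and separated members is therefore not independent of that minimum.

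**Figure D3:**
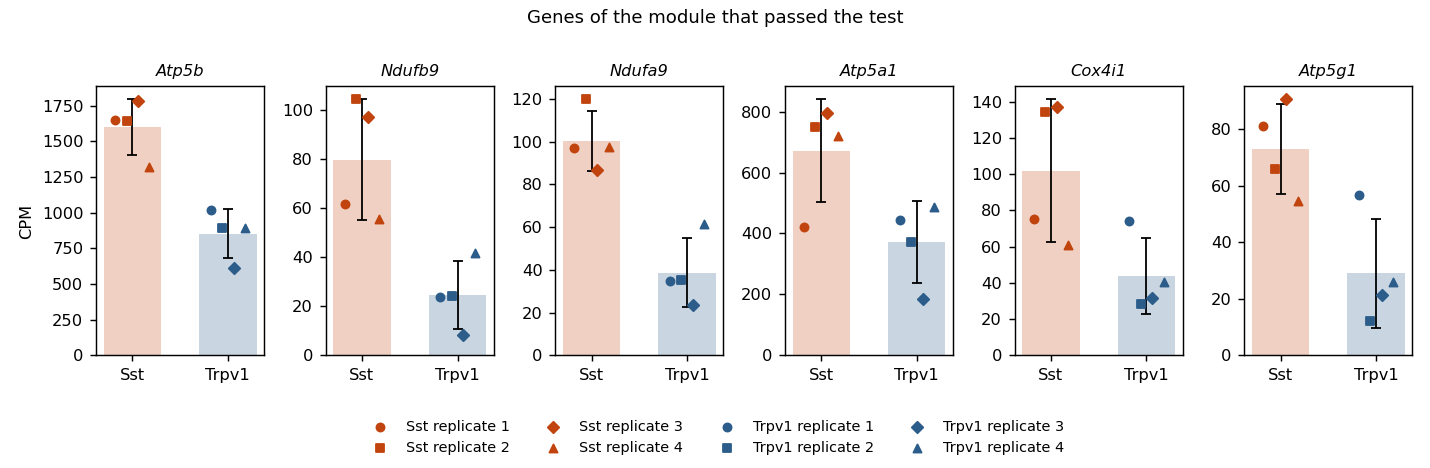
CPM (y axis, from 0, own scale per gene) of 6 called genes in each library. Bars are group means, error bars are SD (n = 4) and points are libraries. Atp5b, Ndufb9 and Ndufa9 separate the groups, and Atp5a1, Cox4i1 and Atp5g1 overlap in 1 Sst or Trpv1 library.

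Complex II links the citric acid cycle to the chain, since it is also the succinate dehydrogenase of the cycle. None of its 4 genes passed. Sdha, the flavoprotein, stood at 301.6, 398.9, 361.6 and 364.3 CPM in Sst replicates 1 to 4 and at 253.6, 329.6, 183.1 and 329.2 CPM in Trpv1 replicates 1 to 4 (log2 fold change 0.38, SE 0.215, edgeR adjusted p = 0.336). Sdhd, a membrane anchor, had the largest difference, 45.8 ± 19.4 against 24.6 ± 7.28 CPM (SD, n = 4 each, log2 fold change 0.88, edgeR adjusted p = 0.2099). Sdhc, the other anchor, stood at 55.3 ± 12.1 and 43.4 ± 8.80 CPM. Sdhb, the iron-sulfur subunit, stood at 22.6 ± 5.23 and 23.8 ± 9.08 CPM, and the log2 fold change of −0.06 (SE 0.440) had a sign that was not stable across alternatives. Ranges of the groups overlapped in all 4 genes.

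Complex III had positive fold changes in all 9 genes and 0 calls. Cyc1, which carries the haem that reduces cytochrome c, stood at 27.8, 46.3, 49.6 and 11.6 CPM in Sst replicates 1 to 4 and at 17.0, 12.1, 10.9 and 19.0 CPM in Trpv1 replicates 1 to 4. Sst replicate 4 fell among the Trpv1 values (log2 fold change 1.17, SE 0.487, edgeR adjusted p = 0.167). Uqcrh, the hinge protein beside Cyc1, stood at 56.1 ± 12.7 and 30.2 ± 13.5 CPM (SD, n = 4 each, log2 fold change 0.89, edgeR adjusted p = 0.168).

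The large scaffold subunit Uqcrc1 was decided by 1 library. It stood at 48.5, 34.6, 42.1 and 22.03 CPM in Sst replicates 1 to 4 and at 9.89, 7.13, 8.59 and 73.3 CPM in Trpv1 replicates 1 to 4. Trpv1 replicate 4 was the highest of all 8 libraries, whereas the other 3 Trpv1 libraries were below every Sst library. Over all libraries the log2 fold change was 0.53 (SE 0.552, edgeR adjusted p = 0.651). Without Trpv1 replicate 4 it was 2.10 and passed (edgeR adjusted p = 0.0207, range over all alternatives 0.0207 to 0.9195). The Trpv1 libraries left in that fit all held Gh and Prl counts, at 1459 to 1620 CPM together. The sign of Uqcrc1 turned with the Xist term (−0.20), in the 6 libraries with Xist (−0.17) and in the 4 without pituitary counts (−0.93). Its partner Uqcrc2 showed little difference, 60.1 ± 17.4 and 52.1 ± 13.1 CPM. The Rieske iron-sulfur protein Uqcrfs1 stood at 20.6 ± 6.50 and 12.6 ± 8.60 CPM (log2 fold change 0.67).

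Cycs, the somatic form of the cytochrome c that shuttles between complexes III and IV, stood at 35.5, 45.1, 38.4 and 40.8 CPM in the Sst libraries. In the Trpv1 libraries it stood at 20.7, 7.51, 30.1 and 45.2 CPM. The Sst values were close together, while Trpv1 replicate 4 equalled the highest of them (log2 fold change 0.61, SE 0.424, edgeR adjusted p = 0.454).

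All 12 tested genes of complex IV had positive fold changes, and 1 passed. Cox4i1 (ENSMUSG00000031818.12, chromosome 8, 120668222 to 120674207, plus strand), the common form of the largest nuclear subunit, stood at 75.5, 134.5, 136.9 and 61.1 CPM in the Sst libraries. It stood at 74.1, 28.4, 31.8 and 40.4 CPM in Trpv1 replicates 1 to 4. Trpv1 replicate 1 lay above the lowest Sst library, so the groups overlapped (log2 fold change 1.21, SE 0.353, edgeR adjusted p = 0.0401). This call was lost in 12 of 20 alternatives, over all of which the log2 fold change was 1.05 to 1.61. Cox6a1 separated the groups without passing, at 120.2 ± 12.2 and 70.7 ± 18.9 CPM (SD, n = 4 each, log2 fold change 0.76, edgeR adjusted p = 0.102). Cox5a, the partner of Cox4i1 at an early step of assembly, stood at 16.9 ± 4.36 and 10.1 ± 3.13 CPM.

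Several small complex IV subunits were high in Trpv1 replicate 4. Cox7c stood at 146.3 ± 22.04 and 127.7 ± 55.5 CPM (SD, n = 4 each), with 202.5 CPM in that library. Cox8a stood at 67.7 to 78.9 CPM in the Sst libraries, at 28.0 to 44.6 CPM in 3 Trpv1 libraries and at 99.7 CPM in Trpv1 replicate 4. Ndufa4, a complex IV subunit despite its name, stood at 119.4 ± 32.1 and 92.3 ± 44.3 CPM, with 147.6 CPM in the same library. Cox7b, on the X chromosome, had 106.5 CPM in Trpv1 replicate 3, its highest value. Signs of Cox7b, Cox7c and Cox8a turned with the Xist term.

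Isoform genes of complex IV that are known from muscle, lung or testis were at or near 0. These were Cox4i2, Cox6a2, Cox6b2, Cox7a1, Cox7b2, Cox8b and Cox8c, and all 7 fell below the count minimum, as did Ndufa4l2, a relative of Ndufa4. Cox8b, Cox8c and Ndufa4l2 had 0 counts in all 8 libraries, which allows up to 0.0393 CPM (3 counts of 76268655, counting error only). Cox7a1 had 9 and 14 counts in Sst replicates 1 and 3 and 0 in the other 6 libraries, and Cox6b2 had 5 and 9 counts in the same libraries and 0 elsewhere. Cox4i2 had 5 counts in Sst replicate 1 and 1 in Trpv1 replicate 2. The widespread forms Cox4i1, Cox6a1, Cox6b1, Cox7a2 and Cox8a carried nearly all counts of these pairs. Striated muscle markers summed to at most 2.04 CPM in any library.

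Complex V had the highest median and the most abundant genes. Atp5b, the catalytic beta subunit of the F1 head (ENSMUSG00000025393.12, chromosome 10, 128083273 to 128090391, plus strand), had levels of 1649, 1641, 1785 and 1321 CPM in Sst replicates 1 to 4 and at 1018, 891.1, 611.1 and 892.6 CPM in Trpv1 replicates 1 to 4. The groups were separate, with Trpv1 replicate 3 lowest. Its log2 fold change was 0.91 (SE 0.173, edgeR adjusted p = 0.00159), and it passed in 19 of 20 alternatives, all but the 4 libraries without pituitary counts (adjusted p from 2.724e-05 to 0.337).

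Atp5a1, the alpha subunit that alternates with beta in the F1 head (ENSMUSG00000025428.15), stood at 422.7, 748.6, 795.3 and 719.7 CPM in Sst replicates 1 to 4 and at 443.6, 373.6, 184.1 and 485.9 CPM in Trpv1 replicates 1 to 4. Sst replicate 1 lay below 2 Trpv1 libraries. The gene passed (edgeR adjusted p = 0.0392, log2 fold change 0.85, SE 0.248). This call was lost in 13 of 20 alternatives. The gamma and delta subunits of F1, Atp5c1 and Atp5d, separated the groups without passing in edgeR (log2 fold changes 0.92 and 1.07, adjusted p = 0.0686 and 0.0810), and DESeq2 called both. Atp5e, the epsilon subunit, gave 0.34. Over the 5 F1 genes the median was 0.91.

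The membrane ring of complex V is made of subunit c, for which 3 genes encode the same mature protein behind different import sequences. Atp5g1 (ENSMUSG00000006057.15, chromosome 11, 96068852 to 96075670, minus strand) stood at 81.4, 65.9, 90.7 and 54.7 CPM in Sst replicates 1 to 4 and at 56.9, 12.4, 21.2 and 25.99 CPM in Trpv1 replicates 1 to 4. Trpv1 replicate 1 lay just above the lowest Sst library (log2 fold change 1.30, SE 0.387, edgeR adjusted p = 0.0443), and the call was lost in 10 of 20 alternatives, over all of which the log2 fold change was 1.08 to 1.89. Atp5g3 stood at 58.1 ± 7.17 and 40.0 ± 10.7 CPM (SD, n = 4 each, log2 fold change 0.53, SE 0.327), and did not pass. Atp5g2 was scarce, at 2.52 ± 1.60 and 4.25 ± 2.46 CPM, and had the lowest fold change of the module, −0.84 (SE 0.776, edgeR adjusted p = 0.599). The difference of differences between the 3 genes was not tested.

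Per kilobase of annotated exon, Atp5g3 stood at 26.6 and 18.3 CPM (Sst and Trpv1 means), Atp5g1 at 14.9 and 5.92 and Atp5g2 at 1.51 and 2.54. The order Atp5g3, Atp5g1, Atp5g2 was thus shared by the 2 genotypes on this scale. On the same scale the most abundant genes of the module over all libraries were Atp5b (289.4), Atp5a1 (166.4), Cox6a1 (135.9) and Cox7c (121.1 CPM per kilobase). At the other end were Ndufb7 (1.502), Ndufaf6 (1.83) and Atp5g2 (2.02), and the median of the 85 members with a length was 12.2. Exon length here joins all annotated transcripts, so genes with long rare exons appear lower.

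Among stalk and membrane subunits, Atp5j and Atp5o separated the groups without passing (log2 fold changes 1.06 and 0.97, edgeR adjusted p = 0.108 and 0.201). They encode coupling factor 6 and the oligomycin sensitivity protein, parts of the stalk that holds F1 in place. Atp5j2, a small membrane subunit, stood at 25.8 ± 4.57 and 29.7 ± 9.18 CPM (SD, n = 4 each, log2 fold change −0.21). Atp5s, which encodes coupling factor B, gave −0.09.

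**Figure D4:**
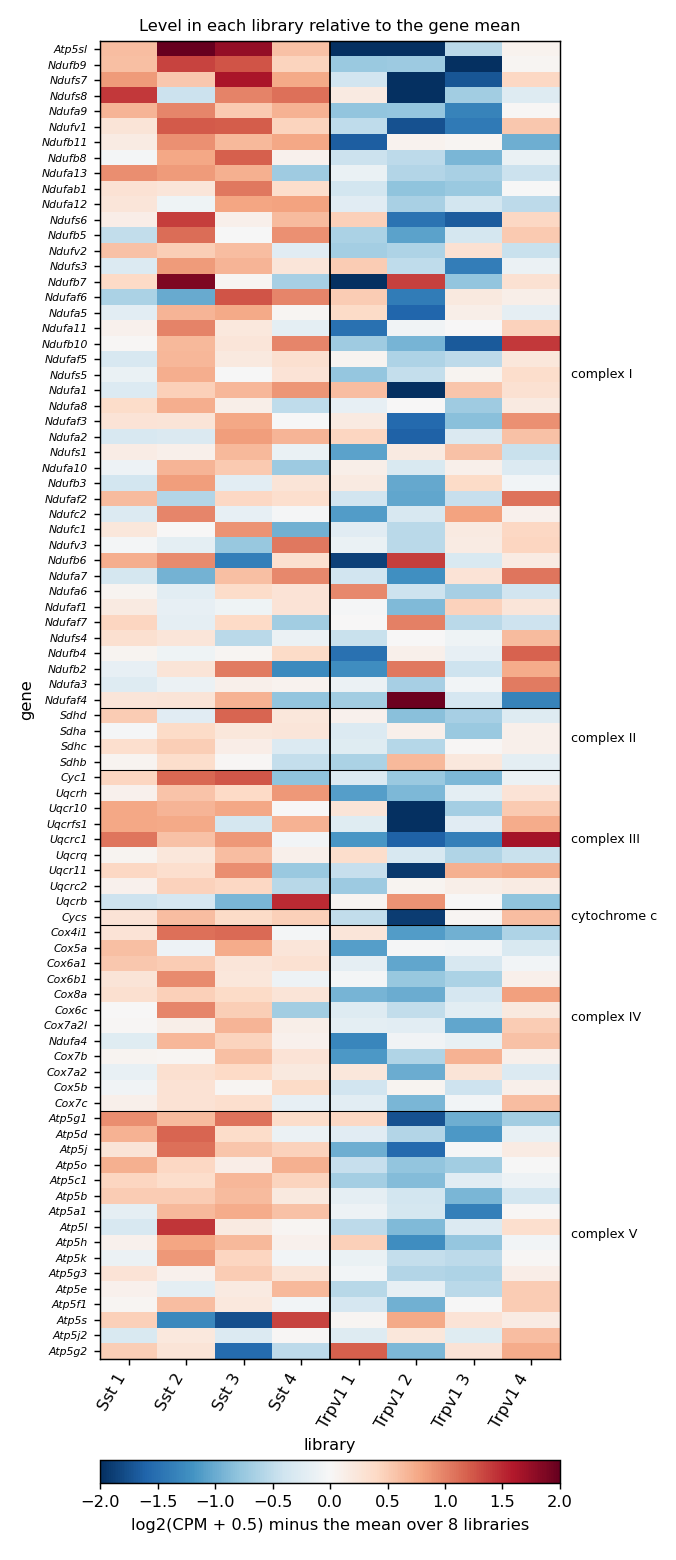
Level of 85 of the 86 genes (rows, grouped by complex) in the 8 libraries (columns), as log2(CPM + 0.5) minus the gene's mean over the libraries, with colours capped at −2 and 2. Over all 86, Sst replicates 2 and 3 hold the highest value of 28 and 24 genes, Trpv1 replicates 1, 2 and 3 the lowest of 17, 37 and 19, and Trpv1 replicate 4 the lowest of 1.

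The libraries differed within each genotype as well. Sst replicates 2 and 3 held the highest value of 28 and 24 genes, Sst replicates 1 and 4 of 4 and 9. Trpv1 replicate 4 held the highest value of 12 genes and the lowest of 1, while Trpv1 replicate 2 held the lowest of 37. Relative to the Trpv1 mean of each gene, the median member lay 0.41, 0.88, 0.77 and 0.53 log2 units higher in Sst replicates 1 to 4. In the Trpv1 libraries this median was −0.03, −0.32, −0.08 and 0.44. Trpv1 replicate 4 therefore overlapped the Sst libraries on this measure. Leaving it out raised the members' median log2 fold change from 0.48 to 0.70, with 7 genes called, of which 5 were shared with the full set, and Ndufv1 and Uqcrc1 were added. All Trpv1 libraries left in that fit held pituitary counts.

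None of the tested mitochondrially encoded partner subunits passed. Of 12 tested among 13, 0 passed in edgeR or DESeq2, 0 had an unadjusted p under 0.05, and all 12 fold changes were negative, with a median of −0.51. Summed, they stood at 41880, 45100, 29820 and 56530 CPM in Sst replicates 1 to 4 and at 39860, 41020, 109200 and 42170 CPM in Trpv1 replicates 1 to 4. Trpv1 replicate 3 was far above the rest and also held the lowest nuclear sum. Without it the median was 0.10, so the negative sign rests on that library. The difference between nuclear and mitochondrial genes was not tested. The gene below the filter was mt-Nd3, at 0.198, 0.109, 17.6 and 31.4 CPM in Sst replicates 1 to 4 and at 0.127 to 0.632 CPM in the Trpv1 libraries. The 2 high values are Sst replicates 3 and 4, and with no filter on low counts 1 gene of the 13, this one, was called higher.

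Assembly factors outside the naming rule, such as Surf1, Sco1 and Bcs1l, gave no calls. Of 33 tested, 0 passed in edgeR or DESeq2 and 0 had an unadjusted p under 0.05. The median was −0.02, and −0.15 to 0.28 with 1 library left out. Several were scarce, so a shift in them could be missed (Sco1 log2 fold change 1.59, SE 0.893, Bcs1l −0.78, SE 0.959). The gene lists compared here were chosen with earlier results of these data known, so their shares are descriptions. In the list of inner membrane exchange and uncoupling, 3 of 11 rose (27.3%, against 3.04% of all genes tested) and 0 fell. These were Slc25a3, the phosphate carrier that feeds ATP synthesis (129.0 ± 47.6 against 61.2 ± 8.199 CPM, SD, n = 4 each, log2 fold change 1.08, edgeR adjusted p = 0.0252), Slc25a5, an ADP/ATP carrier (1.59, edgeR adjusted p = 0.0189), and Ckmt1, mitochondrial creatine kinase (1.87, edgeR adjusted p = 0.00298). The list had 1 call with the Xist term, in the 6 libraries with Xist, without Sst replicate 3 and without Trpv1 replicate 4, and 0 in the 4 libraries without pituitary counts. Slc25a3 lost its call in 9 of 20 alternatives (log2 fold change 0.81 to 1.28 over all of them), Slc25a5 in 4 and Ckmt1 in 3.

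Pyruvate dehydrogenase and the citric acid cycle supply NADH and succinate to the chain. Of 20 tested genes 1 rose (5%, against 3.04% of all genes tested) and 0 fell, with a median of 0.73. At an unadjusted p under 0.05, 10 of the 20 were higher, against 10.3% of all genes. The groups separated upward in 9 (45%, against 5.43% of all genes). Idh3g, a regulatory subunit of isocitrate dehydrogenase, was the called gene, at 66.7 ± 22.4 and 20.3 ± 7.08 CPM (SD, n = 4 each, log2 fold change 1.70, edgeR adjusted p = 0.00685). Its call was lost with the Xist term, in the 6 libraries with Xist and in the 4 libraries without pituitary counts, which left 0 calls in the list, and its log2 fold change was 0.90 to 2.00 over all alternatives. DESeq2 called 4 of the list, and 3 were called without Sst replicate 4 and 2 without Trpv1 replicate 4. Summed over 21 genes, the list stood at 1799 to 2157 CPM in Sst replicates 1 to 4 and at 1189 to 1356 CPM in Trpv1 replicates 1 to 4, with Trpv1 replicate 4 the highest of its group but apart from the Sst range.

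Of 14 tested regulators of mitochondrial biogenesis, 2 rose (14.3%, against 3.04% of all genes tested) and 0 fell. Esrrg, an estrogen-related receptor, stood at 56.8 to 66.3 CPM in Sst replicates 1, 2 and 4, higher still in Sst replicate 3 (group mean 64.7 ± 7.87, SD, n = 4), and at 0.309, 3.69, 6.19 and 5.18 CPM in Trpv1 replicates 1 to 4 (log2 fold change 4.11, SE 0.509, edgeR adjusted p = 6.731e-06). Ppargc1a, the coactivator PGC-1 alpha, stood at 62.5, 76.9, 112.5 and 72.6 CPM against 8.14, 28.0, 47.1 and 31.8 CPM (log2 fold change 1.52, SE 0.390, edgeR adjusted p = 0.0189). Both genes separated the groups, and Trpv1 replicate 4 was not close to the Sst libraries for either. Ppargc1a missed the threshold in 6 of 20 alternatives, which included the Xist term, the 6 libraries with Xist, and the fits without Sst replicate 3 or without Trpv1 replicate 1 (log2 fold change 1.05 to 1.86 over all of them). Esrrg missed it in 1, the 4 libraries without pituitary counts. The median of the 14 was −0.02. Whether these regulators have a part in the level of the module was not tested.

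Markers of myelinated, neurofilament-rich neurons moved with genotype. In the Sst libraries 11 of 12 rose (91.7%, against 3.04% of all genes tested), and 7 rose in the 6 libraries with Xist. This list was chosen with earlier results of these data known, so the share is a description and no independent support. The 12 markers had a median log2 fold change of 2.74. It was 2.69 in the 4 libraries without pituitary counts, where Trpv1 replicate 4 stands alone and the spread of its group is unknown. Their summed level was 9136 to 15410 CPM in the Sst libraries and 5597 to 6656 CPM in Trpv1 replicates 1 to 4. Necab2 was at 0 in Trpv1 replicates 2 and 3, Pvalb in replicate 1 and Spp1 in replicate 4. The other markers were above 0 in every Trpv1 library, from Ntrk3 at 0.103 CPM to Nefl at 3916 CPM, both in replicate 1. Trpv1 replicate 4 had the lowest sum of the 12 markers among the 8 libraries and the highest module sum of its group. Most of that marker sum came from Nefl and Nefm, at 3342 and 1823 CPM in that library. Single markers differed, and within the Trpv1 group this library was highest for Ntrk3 and Pvalb and lowest for Nefm, Ntrk2 and Spp1. The part of a different mix of neuron classes in the module's difference was not tested.

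Of the 9 general DRG neuron markers, Snap25 rose and Scn9a fell. Snap25 was called in 19 of 20 alternatives, while Scn9a lost its call in 10, including the replicate block, the Xist term and 6 of the 8 fits that left out 1 library. Summed, the 9 markers stood at 6539 to 7149 CPM in the Sst libraries and 4737 to 5261 CPM in Trpv1 replicates 1 to 4. The ratio was 1.35 with no overlap, but this difference rested on Snap25, at 4034 ± 370 and 1991 ± 270 CPM (SD, n = 4 each). Fitted log2 fold changes were positive for 5 of the 9 and negative for 4, with a median of 0.09. The part of these markers in the result was not tested. Schwann and satellite glia markers summed to 676.3 to 1075 CPM in the Sst libraries and 839 to 1370 CPM in Trpv1 replicates 1 to 4, and 0 of 10 passed in edgeR or DESeq2, with 0 higher and 3 lower at an unadjusted p under 0.05. Cytosolic ribosomal protein genes gave 0 edgeR calls of 79, with 3 higher and 1 lower at an unadjusted p under 0.05, and a median of 0.09. Of all genes tested, 10.3% were higher and 10.1% lower at that p. The members had a median exon length of 1801 bases against 4834.5 for all tested genes.

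**Figure D5:**
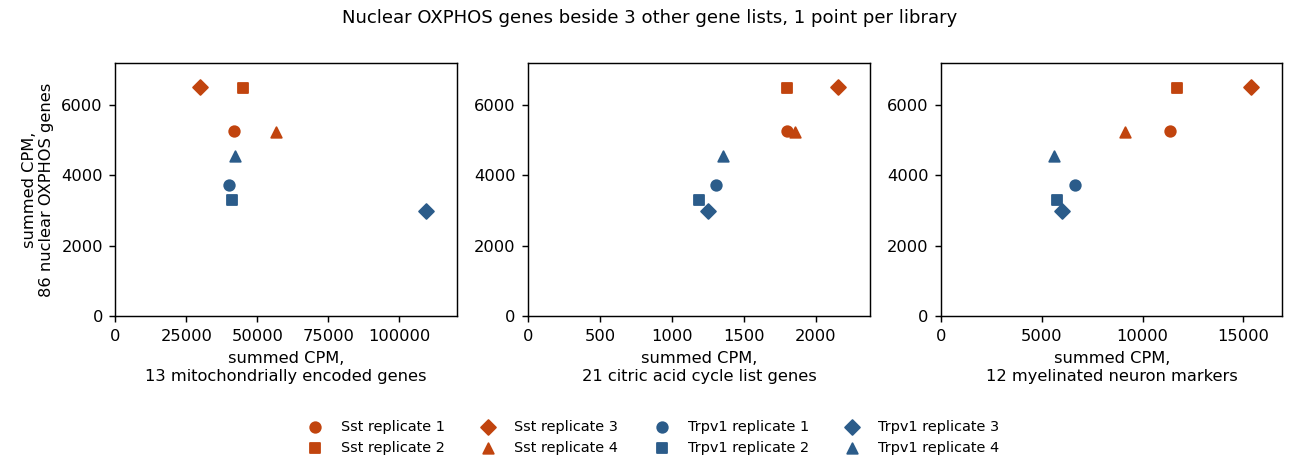
Summed CPM of the 86 nuclear genes (y axis) against the summed CPM of the mitochondrially encoded genes, the citric acid cycle list and the myelinated neuron markers (x axes), 1 point per library. Trpv1 replicate 3 stands apart at 109200 CPM of mitochondrially encoded genes, and Trpv1 replicate 4 combines the highest module sum of the Trpv1 libraries (4555 CPM) with the lowest marker sum (5597 CPM). Nefl and Nefm make up most of the marker sum.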

How the data were processed

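The deposited file holds raw counts, whole reads per gene symbol, in 8 columns with 0 unused. The submitters' processing notes name bcl2fastq 2.17, Trimmomatic 0.33, featureCounts and GRCm38. Aligner, annotation, strand and multi-mapping settings were not given in the sources used here. Genes with near-identical copies are therefore uncertain. Per the labels' protocols, RNA of small pools was amplified (Ovation V2) before Nextera XT libraries, which adds spread to scarce genes.

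Counts were scaled by TMM and tested with edgeR 4.0.16 in R 4.3.3 (filterByExpr with a minimum count of 10, 11828 genes, robust quasi-likelihood F test with legacy=FALSE, two-sided, Benjamini-Hochberg over all genes, threshold 0.05). Fold changes are Sst over Trpv1, and standard errors were computed from fold change and F. Totals of 7419027 to 12153109 counts per library set the precision, and the script was tested on simulated data. Samples labelled as replicates come from separate mice or pools as far as the labels say, so p-values measure the spread between these samples.

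Named genes are all called members, the 2 most abundant and the most extreme members of each complex (mean log2 CPM of at least 3), core subunits, isoform pairs, and up to 4 called genes per companion list. Of the called genes, 1 is not reported here. Other members were chosen after their values were seen. The members and lists were chosen with earlier results of these data known. The ribosomal protein list was added later. Lengths and coordinates are from GENCODE on GRCm38 and promoters from RefSeq on GRCm38.p6. Alternatives were other size factors, library totals, filters, DESeq2 1.42.0, limma 3.58.1 voom, other dispersion estimates, the replicate block, Xist and left-out libraries. Chosen after seeing the data were the legacy quasi-likelihood fit and the fit of 4 libraries.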

Additional observations from a re-analysis of the deposited data

Results flagged for a closer look

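Of 80 groups of 4 libraries checked, 6 held a value far from the other 3, by its gap to the nearest library as a share of the range of the group, and chance flags about 1 group in 20. Uqcrc1 stood at 73.3 CPM in Trpv1 replicate 4, the highest of all libraries. Ndufaf4 stood at 60.8 CPM in Trpv1 replicate 2. Cox7a2l stood at 113 CPM in Sst replicate 3. Uqcrc2 stood at 32.5 CPM in Trpv1 replicate 1 and Uqcrfs1 at 10.9 CPM in Sst replicate 3, both below the rest of their group. The mitochondrially encoded protein genes summed to 109000 CPM in Trpv1 replicate 3.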

How the results depend on the processing

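No alternative called a member lower in the Sst libraries. The count of 7 higher members became 2 with the Xist term, 2 in the 6 libraries with Xist, 4 with the legacy quasi-likelihood fit and 0 in the 4 libraries without pituitary counts, and ran from 4 to 7 when 1 library was left out (4 when Sst 2, Sst 3, Trpv1 2 or Trpv1 3 was the one dropped). All genes called went from 751 to 435, 305, 493 and 52 in the same settings, and ran from 452 to 747 with 1 library left out. The members' median fell to 0.12 in the 4 libraries, where 1 Trpv1 library remained. It was 0.42 to 0.70 with 1 library left out. Per the labels, a picking session held 1 sample of each genotype, but they do not say that the replicate number marks the session. Same-numbered libraries did not deviate together (correlations −0.03 to 0.03). This cannot settle whether the number pairs them, since a shared session need not leave a shared deviation. With a replicate block 5 members and 572 genes were called. With library totals that leave out mitochondrially encoded genes, the module took 0.824% of the Sst counts (0.558% to 0.632% of full totals with 1 library left out) and 0.52% of the Trpv1 counts (0.333% to 0.408%).

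Signs turned in genes that were not called, and the cause was not tested. With the Xist term, Cox7b was −0.16, Cox7c −0.17, Cox8a −0.0036, Uqcrc1 −0.20 and Ndufaf4 1.02. In the 6 libraries with Xist, Cox7b was −0.14, Cox7c −0.15, Uqcrc1 −0.17, Ndufaf4 1.04 and Sdhb 0.0144. In the 4 libraries without pituitary counts, Cox7a2l was −0.17, Cox7c −0.48, Cox8a −0.46, Cycs −0.20, Ndufa4 −0.42, Uqcrc1 −0.93, Uqcrc2 −0.0924, Uqcrfs1 −0.25, Ndufaf4 1.62 and Sdhb 0.11. With limma voom, Ndufaf4 was 0.41 and Sdhb 0.0862, and with the replicate block Ndufaf4 was 0.0489. With 1 library left out, Atp5j2 ran from −0.31 to 0.0244 (highest without Trpv1 replicate 4), Ndufaf4 from −0.60 to 1.00 (highest without Trpv1 replicate 2) and Sdhb from −0.23 to 0.21, with 0.0803 without Sst replicate 4. Low counts limit Atp5sl, Atp5g2 and Ndufaf6, whose standard errors are 0.990, 0.776 and 0.831.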
